A study of Mus musculus with 12 samples.

Results

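The Schlafen genes of the mouse were followed through a short stimulation of CD8 T cells. The members were the 7 rows of the gene count table named Slfn1, Slfn2, Slfn3, Slfn4, Slfn5, Slfn8 and Slfn9, out of 20778 rows, and were taken by symbol, with no threshold on their values. The family itself was picked with earlier results of these data known. All 7 passed the filter on low counts and were tested among 12122 genes. In the study, which asked what kind of T cell activation makes tumor cells enter one another, these libraries compared T cells given interferon gamma with T cells given an antibody to their receptor complex or a bacterial product.

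The cells came from spleens of C57BL/6 mice (6 weeks old by the labels), were purified as CD8 T cells on magnetic beads and spent 6 h in culture before RNA was taken. Cells were left untreated (Naïve) or received an antibody to CD3, which signals for the T cell receptor (αCD3, 1 µg/ml), interferon gamma (IFNγ, 70 ng/ml) or lipopolysaccharide of the bacterial cell wall (LPS, 1 µg/ml). Each of the 4 groups held 3 mRNA libraries, numbered 1 to 3. The unit of the αCD3 and LPS doses is uncertain, since another label field has mg/ml, and so is the age, since older mice are named in the methods of the study.

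Schlafen genes are a vertebrate family named after the German word for sleep, because forced expression of the first members stopped the growth of T cells. The proteins share an N-terminal core that can bind or cut RNA, and fall into short, intermediate and long members. Long members carry a helicase-like domain in addition. In T cells the short member Slfn2 is known for keeping resting cells quiescent, since mice with a mutant Slfn2 lose T cells when these are activated, and several members are known targets of interferons.

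Total counts ranged from 10.2 M to 27.6 M per library. Each library had counts for 14348 to 15372 genes. The libraries numbered 1 stood apart from numbers 2 and 3 in all 4 groups. Their summed level of a 25-gene list of interferon targets was the lowest of the group in 4 of 4 groups, and so were those of myeloid markers (561 to 780.5 CPM, which is a count relative to the TMM-scaled size of its library, in the libraries numbered 1 against 1003 to 1536 in the others) and of erythroid and platelet markers (21.7 to 31.5 against 44.0 to 125 CPM). The sums of T cell activation genes and of CD4 T cell markers were also the lowest in the libraries numbered 1 in 4 of 4 groups. That of quiescence and homing genes was the highest there in every group. Same-numbered libraries deviated together from their group means, so values with the number as a block, and values without the libraries numbered 1, are given below where they change a result. All 9 CD8 T cell markers were detected in every library, with a summed level of 1551 to 1743 CPM in Naïve, 2190.4 to 2379 in αCD3, 1577 to 1708 in IFNγ and 1246 to 1429 in LPS. All 10 B cell markers were detected in every library too, beside those of the labelled CD8 T cells. Their summed level was 3497 to 3803 CPM in Naïve, 2445 to 2809 in αCD3, 2777 to 2879 in IFNγ and 2051 to 3158 in LPS, above the sum of the CD8 T cell markers in all 12 libraries (the sums are over different genes and not per transcript length). Their part in the results below was not tested. In RNA from whole cultures, fewer cells of a type and less RNA per cell cannot be told apart.

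All 7 Schlafen genes rose with IFNγ and all 7 rose with LPS, while 4 of the 7 rose with αCD3. Against this, 8.17% of all tested genes were called higher in IFNγ than in Naïve, 26.9% in LPS and 22.9% in αCD3. A gene is referred to as called where the Benjamini-Hochberg adjusted p of the edgeR quasi-likelihood test was under 0.05. The median log2 fold change over the 7 members was 1.97 for IFNγ, 1.87 for LPS and 1.27 for αCD3, against medians between -0.02 and -0.01 over all tested genes. The same 3 Naïve libraries served in all these comparisons, so their results are not independent of each other. The long member Slfn5 changed most and the short member Slfn2 least among the called members in the IFNγ and LPS comparisons. In the test for any difference among the 4 groups, all 7 members were called (adjusted p from 6.78e-04 for Slfn1 to 0.0325 for Slfn3), against 59.9% of all tested genes.

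**Figure D1:**
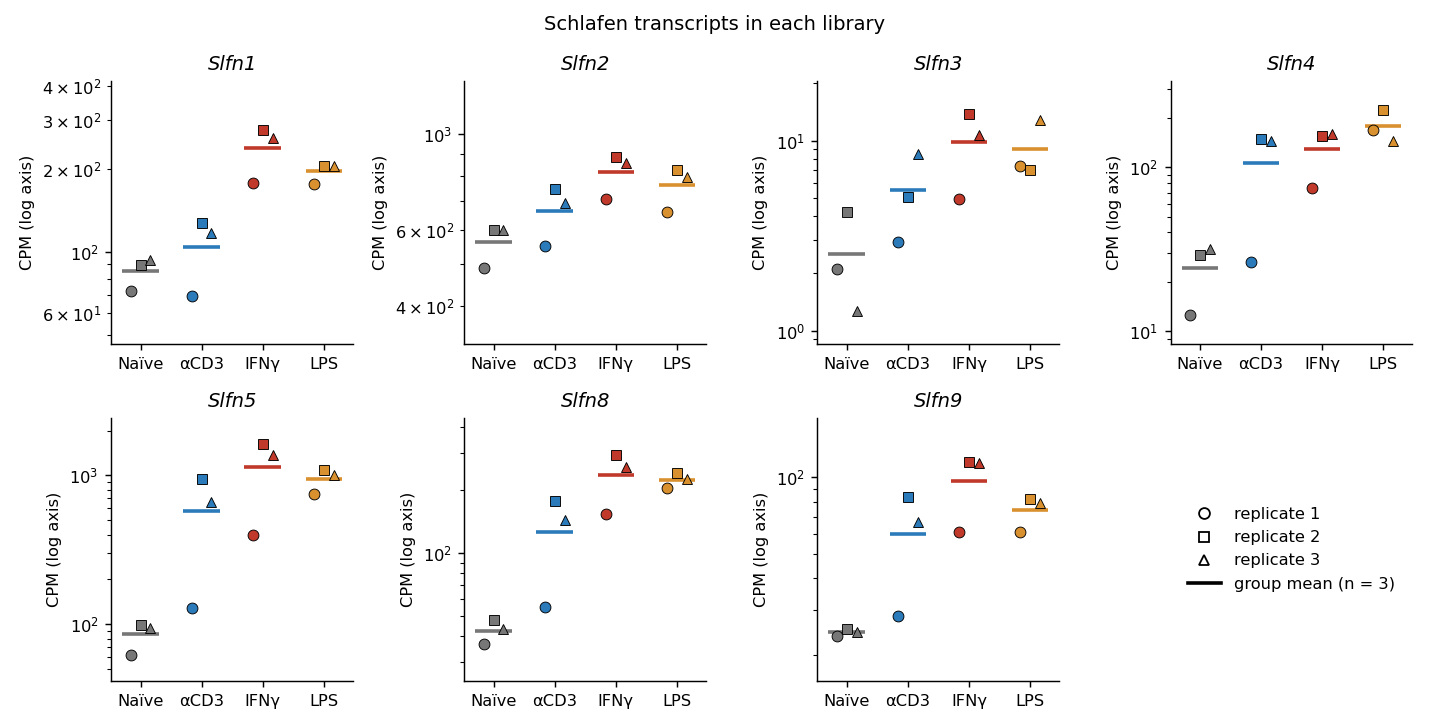
Expression of each Schlafen gene in CPM (log axis) in the 12 libraries, by group, with the replicate number as the marker shape and the mean of the 3 libraries as a bar. In every group the circles of replicate 1 mostly lie below the squares and triangles of replicates 2 and 3, in LPS with the exception of Slfn3 and Slfn4. Slfn5 spans 62.6 to 1624 CPM.

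The genes lie side by side on chromosome 11 (GRCm38, GENCODE M21), within 264 kb. In order along the chromosome they are Slfn5 (chr11:82951349-82964840, + strand), Slfn9 (chr11:82978390-82991830, - strand), Slfn8 (chr11:83002158-83020810, - strand), Slfn2 (chr11:83065112-83070678, + strand), Slfn1 (chr11:83116849-83122670, + strand), Slfn4 (chr11:83175186-83190216, + strand) and Slfn3 (chr11:83191330-83215154, + strand). The longest coding sequences hold 337 and 378 codons in the short Slfn1 and Slfn2, 640 and 602 in the intermediate Slfn3 and Slfn4, and 884, 910 and 910 in the long Slfn5, Slfn8 and Slfn9, stop codons left out. The coding sequences of Slfn3 and Slfn4 were 92.7% identical over 1785 aligned bases and those of Slfn8 and Slfn9 92.7% over 2730, while all other pairs were 61.8% to 76.2% identical.

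This likeness bears on the counts, since reads that match more than 1 transcript are divided among them in pseudo-alignment. Stretches of 31 bases found in no other gene made up 98.0% of those of Slfn1, 95.1% of Slfn5 and 89.7% of Slfn2, but 79.9% of Slfn4, 76.4% of Slfn9, 73.2% of Slfn8 and 70.0% of Slfn3. The values of Slfn3 and Slfn4, and of Slfn8 and Slfn9, are therefore uncertain where they differ within a pair. Antisense genes are annotated over Slfn5 (Slfn5os) and Slfn2 (Gm20234). Whether the library kit kept the strand is not given in the sources used here, so reads of the sense and antisense genes cannot be told apart.

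**Figure D2:**
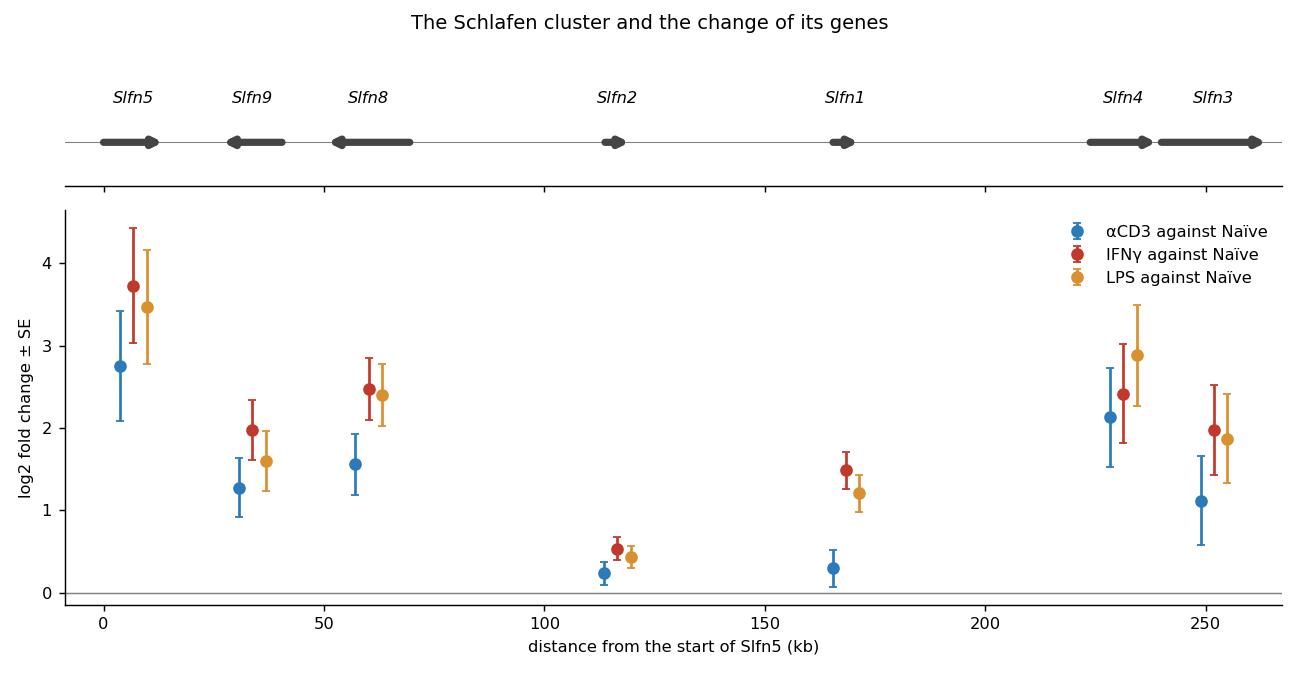
The top panel draws the 7 Schlafen genes as arrows in the direction of transcription, and the bottom panel gives the log2 fold change ± SE of each gene against Naïve for αCD3, IFNγ and LPS, both against the distance in kb from the start of Slfn5 (the 3 points of a gene are set apart sideways for legibility). The 2 genes in the middle, Slfn2 and Slfn1, have the smallest changes with IFNγ and LPS (0.43 to 1.48), and Slfn5 at the left end has the largest (3.47 and 3.73).

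Of the short members, Slfn2 was expressed at the highest level per transcript length of the family in every group. In Naïve it stood at 339 ± 38.1 CPM per kb of transcript (SD, n = 3) and made up 80.0% to 81.5% of the family's summed CPM per kb. Slfn1, the founding member, followed in Naïve at 45.6 ± 5.98 CPM per kb. The other 5 members each stood below 15 CPM per kb on average in Naïve, from 1.29 ± 0.775 for Slfn3 to 14.3 ± 3.35 for Slfn5.

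Slfn2 was measured at 490.0, 600.1 and 599.7 CPM in Naïve replicates 1 to 3, at 549, 745 and 691 in αCD3, at 707, 883 and 857 in IFNγ and at 661, 827 and 794 in LPS. The IFNγ and LPS libraries all lay above all Naïve libraries, while αCD3 replicate 1 lay within the Naïve range. Slfn2 rose 1.45-fold with IFNγ (log2 fold change 0.53, SE 0.14, adjusted p = 0.0277 in edgeR) and 1.35-fold with LPS (0.43, SE 0.14, adjusted p = 0.0221). With αCD3 the log2 fold change was 0.23 (SE 0.14, edgeR adjusted p = 0.203), and with the replicate number as a block it was 0.23 and passed the test (SE 0.04, adjusted p = 7.36e-04).

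Within each replicate number the ratio of Slfn2 to Naïve varied little, from 1.43 to 1.47 for IFNγ, from 1.32 to 1.38 for LPS and from 1.12 to 1.24 for αCD3. Its rise with LPS was sensitive to how libraries were scaled. Under scaling by library size alone, which moved the median of all genes from -0.01 to -0.22, the log2 fold change of Slfn2 was 0.22 and was not called (edgeR adjusted p = 0.138). The calls for Slfn2 were also lost without single libraries. Its IFNγ call was lost without any 1 of Naïve replicates 1, 2 and 3 or of IFNγ replicates 2 and 3, and its LPS call without Naïve replicate 1 or LPS replicates 2 or 3 (edgeR adjusted p from 0.0595 to 0.110 over these fits).

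Slfn1 was measured at 72.2, 89.5 and 93.0 CPM in Naïve, at 69.4, 127 and 117 in αCD3, at 177, 277 and 259 in IFNγ and at 176, 205 and 205 in LPS. IFNγ and LPS did not overlap with Naïve or with αCD3, while αCD3 overlapped with Naïve through replicate 1. Slfn1 rose 2.80-fold with IFNγ (log2 fold change 1.48, SE 0.23, edgeR adjusted p = 0.00236) and 2.30-fold with LPS (1.20, SE 0.23, adjusted p = 0.00155). With αCD3 its log2 fold change was 0.29 (SE 0.23, 95% interval -0.20 to 0.79, edgeR adjusted p = 0.326), and 0.42 without the libraries numbered 1, where it was called (SE 0.06, adjusted p = 4.44e-04). It was also called without αCD3 replicate 1 alone (adjusted p = 0.0402).

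Of the intermediate members, Slfn4 is known from macrophages and other myeloid cells, where interferons induce it. It was measured at 12.5, 29.1 and 31.7 CPM in Naïve, at 26.6, 149 and 144 in αCD3, at 74.5, 155 and 159 in IFNγ and at 168, 224 and 145 in LPS. The IFNγ and LPS libraries all lay above Naïve, and αCD3 replicate 1 lay among the Naïve libraries while replicates 2 and 3 lay near those of IFNγ. Slfn4 rose 5.33-fold with IFNγ (log2 fold change 2.42, SE 0.60, edgeR adjusted p = 0.0264), 7.38-fold with LPS (2.88, SE 0.61, adjusted p = 0.00309) and 4.37-fold with αCD3 (2.13, SE 0.60, adjusted p = 0.0180). The IFNγ call was lost without any 1 Naïve library or IFNγ replicates 2 or 3, and the αCD3 call without Naïve replicate 1 or αCD3 replicates 2 or 3 (edgeR adjusted p from 0.0609 to 0.0855 over these fits). The IFNγ call was also lost with no filter on low counts (adjusted p = 0.0591) and the αCD3 call with only the 6 libraries of both groups in the fit (0.0541). Without the libraries numbered 1 all 3 calls held, with 2.35, 2.60 and 2.28 on the log2 scale for IFNγ, LPS and αCD3 (SE 0.21 to 0.22, edgeR adjusted p from 1.42e-04 to 7.41e-04).

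The 14 myeloid markers were all detected in every library, with summed levels of 695 to 1260.5 CPM in Naïve, 561 to 1028 in αCD3, 780.5 to 1536 in IFNγ and 704 to 1061 in LPS. In the edgeR test 6 of the 14 were called lower and 2 higher in αCD3, 7 lower and 2 higher in LPS, and 1 lower and 2 higher in IFNγ (over all tested genes 15.7%, 22.3% and 4.27% were called lower and 22.9%, 26.9% and 8.17% higher in αCD3, LPS and IFNγ). The ranges of the sum overlapped between Naïve and each treatment. Their part in the level of Slfn4 was not tested.

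Slfn3 was the least abundant member per transcript length in every group, with 20.7 to 159.7 counts per library. It was measured at 2.10, 4.22 and 1.27 CPM in Naïve, at 2.93, 5.05 and 8.46 in αCD3, at 4.94, 13.7 and 10.7 in IFNγ and at 7.36, 6.98 and 12.9 in LPS. IFNγ and LPS lay above Naïve without overlap, and αCD3 overlapped with both Naïve and the other treatments. The log2 fold change of Slfn3 was 1.97 with IFNγ (SE 0.54, edgeR adjusted p = 0.0385) and 1.87 with LPS (SE 0.54, adjusted p = 0.0155), both called, and 1.11 with αCD3, not called (SE 0.54, adjusted p = 0.129). The IFNγ call was also lost with no filter on low counts (adjusted p = 0.0572), with only the 6 libraries of both groups in the fit (adjusted p = 0.0623), and without Naïve replicates 1 or 3, αCD3 replicate 2 or IFNγ replicates 2 or 3. The LPS call was lost without Naïve replicates 1 or 3 or LPS replicate 3 (adjusted p from 0.0553 to 0.0620).

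Because reads of Slfn3 and Slfn4 can be divided between them, both were also summed before the fit. The sum rose with all 3 treatments, with log2 fold changes of 2.38 for IFNγ (SE 0.58, edgeR adjusted p = 0.0239), 2.81 for LPS (SE 0.59, adjusted p = 0.00284) and 2.06 for αCD3 (SE 0.58, adjusted p = 0.0175). Slfn4 made up most of the sum, with a mean of 129.6 CPM against 9.79 for Slfn3 in IFNγ and 179 against 9.07 in LPS. The sum therefore mostly repeats Slfn4 and cannot check Slfn3 by itself.

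Of the long members, Slfn5 had the largest log2 fold changes of the family in all 3 comparisons with Naïve. It was measured at 62.6, 99.2 and 95 CPM in Naïve, at 129, 941 and 661 in αCD3, at 398, 1624 and 1378 in IFNγ and at 748, 1089.5 and 1008 in LPS. None of the treated libraries overlapped with Naïve, but αCD3 replicate 1 was close to Naïve and far from αCD3 replicates 2 and 3. Slfn5 rose 13.3-fold with IFNγ (log2 fold change 3.73, SE 0.70, edgeR adjusted p = 0.00669), 11.1-fold with LPS (3.47, SE 0.69, adjusted p = 0.00215) and 6.74-fold with αCD3 (2.75, SE 0.67, adjusted p = 0.00899).

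Ranked by log2 fold change among the 12122 tested genes, Slfn5 was number 38 in IFNγ, number 52 in LPS and number 49 in αCD3. Within the replicate numbers 1, 2 and 3 its ratio to Naïve was 6.37, 16.4 and 14.5 for IFNγ and 2.06, 9.49 and 6.95 for αCD3, but 12, 11 and 10.6 for LPS. For Slfn5 the low response of number 1 was thus seen in IFNγ and αCD3 and not in LPS. Without the libraries numbered 1 the SE of its log2 fold change fell to 0.19 in each of the 3 comparisons, and the changes were 3.93, 3.44 and 3.05 for IFNγ, LPS and αCD3 (edgeR adjusted p from 2.08e-05 to 4.49e-05).

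**Figure D3:**
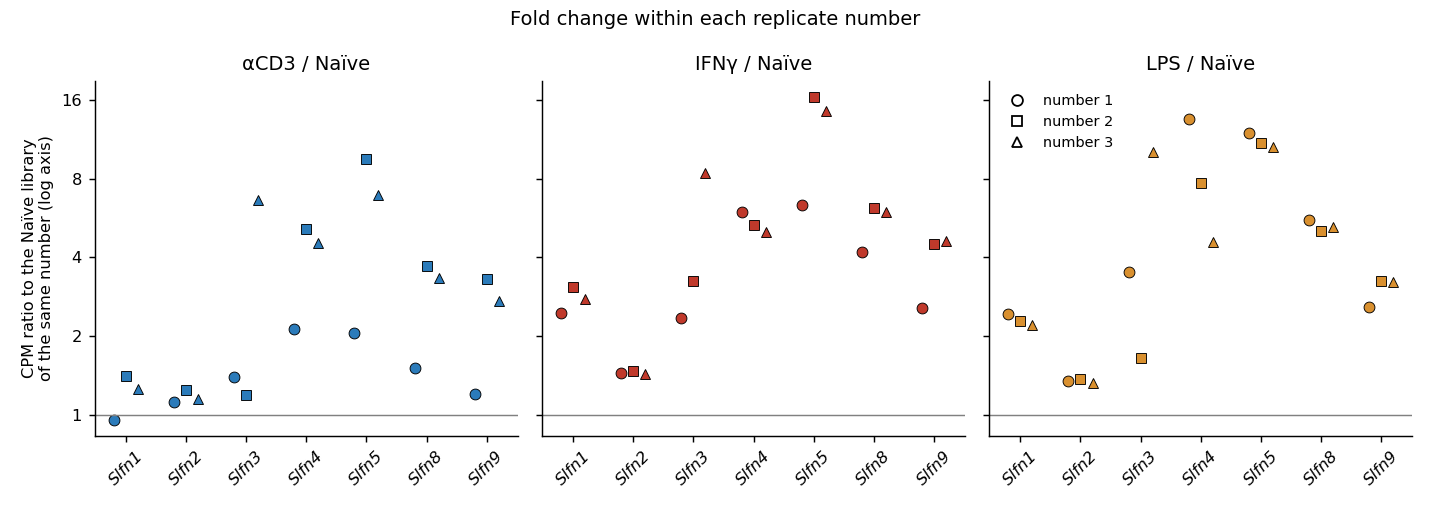
Ratio of the CPM of each treated library to the CPM of the Naïve library with the same replicate number, for the 7 Schlafen genes (log axis, marker shape for the number). Number 1 gives the lowest ratio of Slfn1, Slfn5, Slfn8 and Slfn9 with αCD3 and IFNγ, but the highest ratio of Slfn4 with IFNγ. With LPS it gives the highest ratio of Slfn1, Slfn4, Slfn5 and Slfn8 (12 for Slfn5 and 5.56 for Slfn8) and the lowest of Slfn9.

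Slfn8 was measured at 36.6, 47.9 and 43.1 CPM in Naïve, at 55.4, 178 and 144 in αCD3, at 153, 296 and 258 in IFNγ and at 204, 241 and 226 in LPS. All treated libraries lay above Naïve, and the αCD3 libraries lay below the LPS libraries. Slfn8 rose 5.55-fold with IFNγ (log2 fold change 2.47, SE 0.38, edgeR adjusted p = 0.00238), 5.27-fold with LPS (2.40, SE 0.38, adjusted p = 5.37e-04) and 2.94-fold with αCD3 (1.56, SE 0.37, adjusted p = 0.00798). These calls were kept in every fit that left out 1 library, as were those of Slfn5.

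Slfn9, its near-identical neighbour, was measured at 23.6, 25.3 and 24.6 CPM in Naïve, at 28.4, 83.7 and 66.8 in αCD3, at 60.8, 114 and 114 in IFNγ and at 61.1, 82.4 and 79.0 in LPS. It did not overlap with Naïve in any treatment, and αCD3 replicate 1 lay just above the highest Naïve library. Slfn9 rose 3.93-fold with IFNγ (log2 fold change 1.97, SE 0.36, edgeR adjusted p = 0.00601), 3.03-fold with LPS (1.60, SE 0.36, adjusted p = 0.00425) and 2.41-fold with αCD3 (1.27, SE 0.36, adjusted p = 0.0179). The αCD3 call was lost without Naïve replicates 1 or 3 or αCD3 replicates 2 or 3 (edgeR adjusted p from 0.0513 to 0.0802). Summed with Slfn8 before the fit, the pair rose by 2.31 for IFNγ, 2.15 for LPS and 1.46 for αCD3 on the log2 scale (SE 0.36 to 0.37, edgeR adjusted p from 8.59e-04 to 0.00950).

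**Figure D4:**
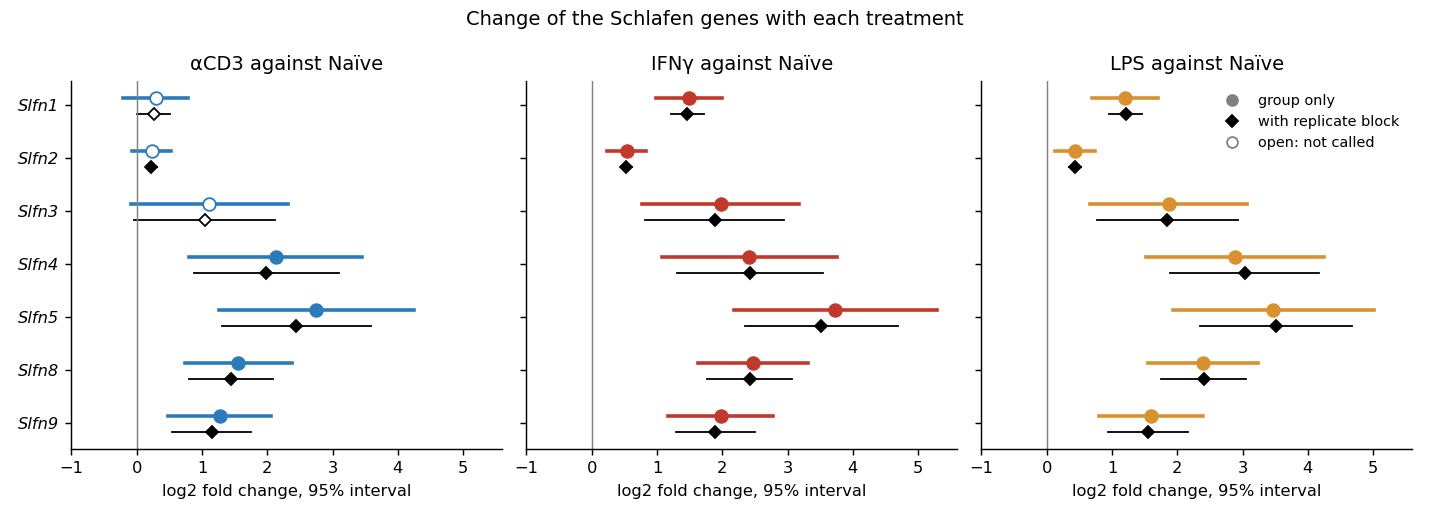
Log2 fold change against Naïve with its 95% interval for each Schlafen gene and treatment, from the edgeR fit with the group alone (coloured circles) and with the replicate number as a block (black diamonds), with open symbols for changes that were not called. All 7 genes are called in IFNγ and LPS in both fits, and in αCD3 Slfn2 is called with the block only.

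Groups did not overlap, with all 3 treated libraries above all 3 Naïve libraries, for 7 members in IFNγ, 7 in LPS and 3 in αCD3, against 16.1%, 30.6% and 28.6% of all tested genes. Without the libraries numbered 1 the members called higher numbered 7, 7 and 6 for IFNγ, LPS and αCD3 (against 11.8%, 29.2% and 26.7% of all tested genes in that fit), with Slfn3 the exception in αCD3 (edgeR adjusted p = 0.111). Fits without 1 library called 4 to 7 members higher in IFNγ, 5 to 7 in LPS and 2 to 5 in αCD3, against 4.64% to 8.65%, 22.7% to 26.8% and 16.9% to 23.2% of all tested genes called higher in the same fits. In αCD3 the lowest count of 2 was reached without Naïve replicate 1, αCD3 replicate 2 or αCD3 replicate 3, where 18.8%, 16.9% and 18.1% of all tested genes were called higher. In IFNγ the lowest count of 4 was reached without Naïve replicate 1 or 3 or IFNγ replicate 2 or 3, against 5.91%, 5.02%, 4.64% and 5.27%.

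The treatments were then compared with each other directly. Between IFNγ and αCD3, 1 of the 7 members was called, and it was higher in IFNγ. Of all tested genes 37.2% were called either way and 15.8% higher in IFNγ, so that the members' count was not above the background. Slfn1 was 2.28-fold higher in IFNγ (log2 fold change 1.19, SE 0.23, edgeR adjusted p = 0.00213), and all 3 IFNγ libraries lay above all 3 αCD3 libraries, as for 21.7% of all tested genes. The other 6 members had log2 fold changes of 0.29 to 0.98 in favour of IFNγ that did not pass the test (edgeR adjusted p from 0.0713 for Slfn8 to 0.725 for Slfn4). The median over the 7 members was 0.86, against 0.03 over all tested genes.

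With the replicate number as a block, 4 members were called higher in IFNγ than in αCD3, against 23.7% of all tested genes in that fit. These were Slfn1 (log2 fold change 1.20), Slfn2 (0.31), Slfn8 (0.97) and Slfn9 (0.75), with adjusted p from 2.13e-05 to 0.0361 in edgeR. Without the libraries numbered 1, Slfn5 was called too (0.88, SE 0.17, edgeR adjusted p = 0.00662), which gave 5 members against 20.4% of all tested genes in that fit. Slfn4 was at 155 and 159 CPM in IFNγ replicates 2 and 3 and at 149 and 144 in αCD3 replicates 2 and 3.

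The members were also set against LPS. Slfn1 was 1.88-fold lower in αCD3 than in LPS (log2 fold change -0.91, SE 0.23, edgeR adjusted p = 0.0182), the only member of 7 called, against 9.76% of all tested genes called lower. Groups did not overlap for Slfn1 and Slfn8, both lower in αCD3, against 18.2% of all tested genes, and Slfn8 did not pass the test (log2 fold change -0.84, SE 0.36, adjusted p = 0.133). With the replicate block Slfn1 (-0.95), Slfn2 (-0.21) and Slfn8 (-0.96) were called lower (edgeR adjusted p from 2.29e-04 to 0.0271), against 18.2% of all tested genes in that fit. The call for Slfn1 was lost without LPS replicate 2 (adjusted p = 0.0604) or LPS replicate 3 (0.0577).

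IFNγ and LPS gave no called difference in the 7 members in edgeR, where 40.4% of all tested genes were called. At an unadjusted p under 0.05 the count was 0 too, and DESeq2 also called 0. The log2 fold changes of IFNγ against LPS ranged from -0.47 for Slfn4 to 0.37 for Slfn9. Their 95% intervals were wide for the members that varied most, from -1.13 to 1.64 for Slfn5, so that differences of more than 2-fold either way lay within it, and narrower for Slfn2, from -0.20 to 0.40. Without the libraries numbered 1, Slfn1 (0.37, SE 0.06, edgeR adjusted p = 8.09e-04) and Slfn9 (0.48, SE 0.09, adjusted p = 0.00241) were called higher in IFNγ, against 22.3% of all tested genes in that fit.

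The make-up of the family changed with these unequal responses. The summed level of the 7 genes was 699.6, 895 and 888 CPM in Naïve replicates 1 to 3, 861, 2229 and 1832 in αCD3, 1576, 3363 and 3036 in IFNγ and 2025, 2676 and 2471 in LPS. The members' counts made up 0.0759% to 0.0968% of all counts in Naïve and 0.325% in the highest library, IFNγ replicate 2. Per transcript length, the share of Slfn2 in the family was 80.0% to 81.5% in Naïve, 48.6% to 64.7% in IFNγ, 53.8% to 54.9% in LPS and 58.0% to 79.4% in αCD3. The share of Slfn5 was 2.90% to 3.68% in Naïve, 10.1% to 24.9% in IFNγ, 17.3% to 19.7% in LPS and 5.17% to 20.4% in αCD3.

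By mean CPM per kb the order in Naïve was Slfn2, Slfn1, Slfn5, Slfn8, Slfn4, Slfn9 and Slfn3. By the group means Slfn2 was followed by Slfn5 and then Slfn1 in all 3 treatments. Slfn5 was at 189.6 ± 108 CPM per kb in IFNγ and Slfn1 at 127 ± 28.6, and in αCD3 they were at 96.5 ± 69.0 and 56.0 ± 16.5, with spreads that overlapped in both. In the libraries numbered 1 of αCD3 and IFNγ the order of the pair was reversed, with Slfn5 at 21.5 and 66.6 and Slfn1 at 37.2 and 94.9 CPM per kb. In LPS Slfn5 was at 159 ± 29.8 and Slfn1 at 105 ± 8.89. The lengths are those of 1 transcript per gene, the one with the longest coding sequence, so these levels depend on that choice.

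**Figure D5:**
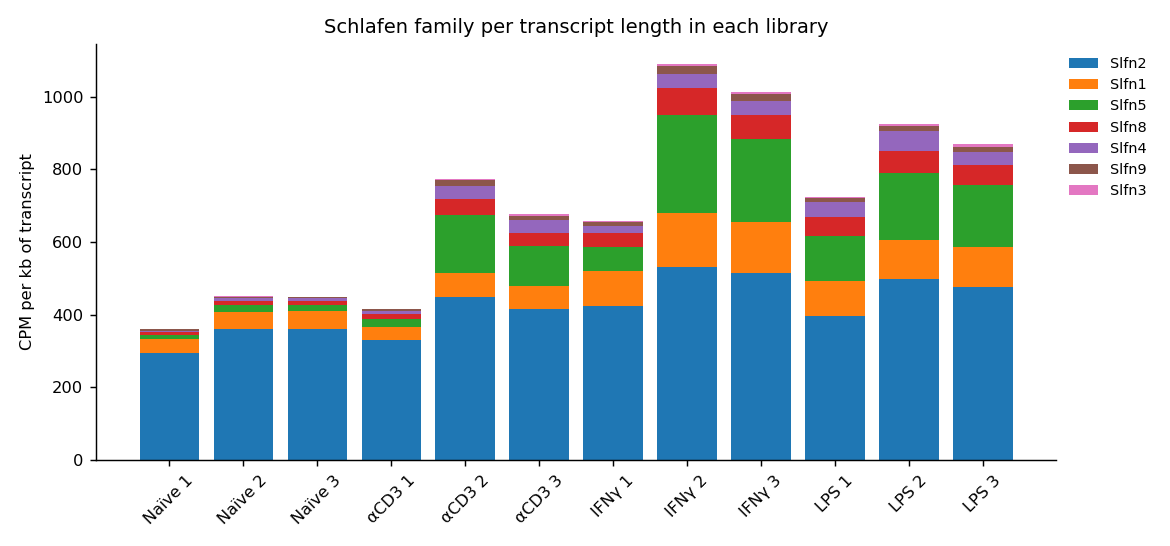
Stacked CPM per kb of transcript of the 7 Schlafen genes in each of the 12 libraries. Slfn2 makes up most of each Naïve bar (80.0% to 81.5%), and the share of Slfn5 is larger in every treated bar (5.17% to 24.9%) than in the Naïve bars (2.90% to 3.68%).

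The sequences before the transcription starts were examined for the long members, which rose together, and for Slfn4 and Slfn2 as the intermediate and short members with strong and weak changes. Promoter windows of 300 bases were taken from RefSeq (GRCm38.p6) for all 7 members (8 windows, since Slfn8 has 2 starts) and 3 motifs were searched on both strands. They were the interferon-stimulated response element core (ISRE, the letters GAAA, any 2 bases, and GAAA), bound by interferon regulatory factors and STAT complexes, the gamma-activated site (GAS, TTC, any 3 bases, and GAA), bound by STAT dimers, and the NF-κB pattern (GGGA, any 4 bases, and CC). The ISRE letters were found in the windows of 3 of the 7 members, Slfn5, Slfn8 and Slfn9, and in those of 3.99% of the 27025 genes with a window (3.44% of 32851 windows). The GAS letters were found in 0 of the 7 members, against 9.55% of all genes (8.3% of windows), and the NF-κB letters in 1 member, Slfn9, against 22.9% (20.7% of windows).

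Stretches before the start of 5 members are given 5′ to 3′ along the gene, with ISRE matches in capitals (on Slfn8 and Slfn9 the match reads on the opposite strand). That of Slfn5 (chr11:82951852-82951984, + strand) ends where an annotated exon of another Slfn5 transcript begins, and the others are the 120 bases before the start, Slfn8 at chr11:83020811-83020930 and Slfn9 at chr11:82991831-82991950 on the - strand, Slfn4 at chr11:83175066-83175185 and Slfn2 at chr11:83064992-83065111 on the + strand.
Slfn5: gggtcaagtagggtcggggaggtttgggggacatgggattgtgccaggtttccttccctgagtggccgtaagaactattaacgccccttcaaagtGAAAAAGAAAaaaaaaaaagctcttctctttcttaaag
Slfn8: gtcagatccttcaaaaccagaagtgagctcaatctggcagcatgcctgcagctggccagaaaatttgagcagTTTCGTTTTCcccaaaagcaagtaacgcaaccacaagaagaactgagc
Slfn9: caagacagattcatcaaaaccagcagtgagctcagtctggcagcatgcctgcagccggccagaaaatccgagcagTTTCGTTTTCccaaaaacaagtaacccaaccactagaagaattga
Slfn4: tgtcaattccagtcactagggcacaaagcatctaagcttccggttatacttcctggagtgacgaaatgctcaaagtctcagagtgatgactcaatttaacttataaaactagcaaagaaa
Slfn2: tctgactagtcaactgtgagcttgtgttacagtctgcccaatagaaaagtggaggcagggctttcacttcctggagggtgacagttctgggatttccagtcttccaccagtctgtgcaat

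The match lay 155 to 146 bases before the RefSeq start of Slfn5, 48 to 39 before the outermost start of Slfn8 (position -136 to -127 from its other start) and 45 to 36 before that of Slfn9. The RefSeq start of Slfn5 lies downstream of the start of the gene in GENCODE, so that the printed stretch and its match are inside the gene as located above, outside its annotated exons. The upstream windows of Slfn8 and Slfn9 were 85.1% identical over 242 aligned bases, so their matches are not independent. Slfn1, Slfn2, Slfn3 and Slfn4 rose with IFNγ without these letters in their windows, which says nothing of sites elsewhere or with other letters.

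Other Schlafen rows of the table were low. The pseudogene Slfn10-ps, which shares stretches of sequence with Slfn8 and Slfn9, had 46.4 to 125 counts per library and rose by 0.70 with IFNγ and 0.99 with LPS on the log2 scale (edgeR adjusted p = 0.0259 and 9.52e-04), and had 0.47 with αCD3 (adjusted p = 0.0533). Slfn14 had at most 18 counts and Slfnl1 at most 4 in any library, and neither passed the filter.

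The 5 nearest protein-coding genes on each side of the cluster were looked up, and 5 of these 10 were tested. With IFNγ their log2 fold changes ran from -0.20 to 0.05 (edgeR adjusted p from 0.270 to 0.897). Nle1, a ribosome assembly factor before Slfn5, was called higher with αCD3 and with LPS (log2 fold changes 1.12 and 1.58, SE 0.09, edgeR adjusted p = 9.79e-06 and 1.11e-06).

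The Schlafen genes were then placed beside gene lists for the pathways they are known for. Of 24 tested interferon targets, 23 were called higher in IFNγ, 22 in αCD3 and 23 in LPS, against 8.17%, 22.9% and 26.9% of all tested genes, with median log2 fold changes of 3.52, 2.55 and 3.51 in edgeR. Ifit3b, of the Ifit family of antiviral RNA-binding proteins, rose most with IFNγ (from 7.48 ± 2.04 to 211 ± 91.1 CPM, log2 fold change 4.84, SE 0.64). Irf9, a subunit of the interferon-activated transcription factor ISGF3, had the smallest changes with IFNγ and LPS (0.91 and 0.86, SE 0.11), and rose in both.

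The summed level of the interferon targets was 899.6 to 1330.1 CPM in Naïve, 1620.4, 7140.5 and 5666 in αCD3 replicates 1 to 3, 5255, 12705 and 11388 in IFNγ and 7453, 10258 and 9562 in LPS. As for Slfn5, αCD3 replicate 1 lay near Naïve and the first library of each group was the lowest.

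Of 24 quiescence and homing genes, 3 were called higher in IFNγ, 2 were higher and 12 lower in αCD3, and 1 was higher and 11 lower in LPS (median log2 fold changes -0.05, -0.26 and -0.45). Over all tested genes, 8.17%, 22.9% and 26.9% were called higher and 4.27%, 15.7% and 22.3% lower in IFNγ, αCD3 and LPS. With the replicate block 4 of these genes were higher and 3 lower in IFNγ, against 13.5% and 11.4% of all tested genes in that fit, and 2 were higher and 19 lower in LPS, against 31% and 28.4%. When 1 library was left out, the genes called in LPS ran from 4 to 17, against 38.6% to 49.8% of all tested genes called either way, with 4 without LPS replicate 2 or 3, 5 without Naïve replicate 1 and 6 without Naïve replicate 2 or 3. The 2 higher calls in αCD3 fell to 0 with library size alone and with only the groups compared. They also fell to 0 without Naïve replicate 2 or 3 or αCD3 replicate 2. Il7r, the receptor for the survival cytokine IL-7, fell from 282 ± 43.4 to 64.4 ± 21.8 CPM with αCD3 (log2 fold change -2.12, SE 0.26, edgeR adjusted p = 1.57e-04). Btg2, an antiproliferative gene, fell with LPS (-0.94, SE 0.11, adjusted p = 5.97e-05). The chemokine receptor gene Ccr7, which guides T cells into lymph nodes, rose with LPS (0.72, SE 0.07, edgeR adjusted p = 1.87e-05).

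Among 25 genes of T cell activation, IFNγ gave 4 calls as higher and 1 as lower, αCD3 gave 17 as higher, and LPS gave 12 as higher and 2 as lower (medians 0.18, 1.17 and 0.77). Over all tested genes the shares were 8.17% higher and 4.27% lower in IFNγ, 22.9% higher in αCD3, and 26.9% higher and 22.3% lower in LPS. The chemokine gene Xcl1 rose with αCD3 from 3.82 ± 0.708 to 63.9 ± 6.72 CPM (log2 fold change 4.07, SE 0.29, edgeR adjusted p = 7.35e-06). Ifng, the gene of IFNγ itself, rose with LPS from 2.61 ± 0.972 to 189.8 ± 158 CPM (6.19, SE 1.25, adjusted p = 0.00234), with a wide spread between its 3 libraries. With IFNγ the T-box factor gene Tbx21 had 1.86 (SE 0.66, adjusted p = 0.101) and the early response gene Egr2 fell (-0.65, SE 0.17, adjusted p = 0.0319). The call for Egr2 was lost in 5 of the 12 fits without 1 library, those without Naïve replicate 2 or 3 or any of the IFNγ libraries (edgeR adjusted p up to 0.125), and Tbx21 was called without LPS replicate 1 (adjusted p = 0.00491).

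The markers of other cells moved as follows in edgeR, where 8.17%, 22.9% and 26.9% of all tested genes were called higher in IFNγ, αCD3 and LPS and 4.27%, 15.7% and 22.3% lower. Of 9 CD8 T cell markers, 5 were called higher in αCD3 and 7 lower in LPS, and of 10 B cell markers 2, 5 and 3 were called lower in IFNγ, αCD3 and LPS and 1 higher in LPS. Of 4 CD4 T cell markers, 2 were called lower in αCD3 and 3 in LPS. Of 7 tested neutrophil markers, 2 and 1 were lower in αCD3 and LPS, and of 7 erythroid and platelet markers 1 and 2. Of 6 dendritic cell markers, 2, 2 and 1 were lower in IFNγ, αCD3 and LPS, with 1 higher in LPS. Of 6 NK cell markers, 1 was higher in IFNγ, 1 higher in αCD3 and 1 lower in LPS. Their part in the changes of the Schlafen genes was not tested.

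For each member the other tested genes with the most similar pattern were taken by Pearson's r of log2 CPM over the 12 libraries, which fall into 4 groups and share the low levels of the libraries numbered 1. The genes most like Slfn5 were Eif2ak2, Trim30a and Phf11d (r = 0.999 each), those most like Slfn8 were Xaf1 (0.998), Oas2 (0.997) and Rnf213 (0.996), and those most like Slfn9 were Setdb2 (0.998), Trafd1 (0.995) and Sp110 (0.994). Slfn4 was most like Lgals3bp (0.984), Rsad2 (0.983) and Trim30d (0.982), and Slfn1 like 1600014C10Rik (0.992), Uba7 (0.987) and Rnf114 (0.977).

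Slfn2 was most like Actr2 (0.985), Arl5a (0.979) and Ube2l6 (0.979). The values were lowest for Slfn3, the member with the fewest counts, which was most like Rtp4 (0.919), Cox15 (0.918) and Nlrc5 (0.909).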

How the data were processed

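Per the study's methods and the labels, reads of the T cell mRNA libraries were pseudo-aligned by the authors with Kallisto to mm10, and the authors deposited unscaled expected counts for each gene symbol and library. The Kallisto version, the transcript annotation and the strand of the kit are not given in the sources used here. The expected counts were rounded to whole numbers. The quasi-likelihood test of edgeR 4.0.16 in R 4.3.3 (robust fit, TMM factors, filterByExpr) was applied to all 12 libraries together, with group as the single factor, Benjamini-Hochberg adjustment over 12122 genes and a threshold of 0.05, for 6 comparisons and for any difference. It was tested on simulated data. DESeq2 1.42.0 was an alternative. CPM is on TMM-scaled sizes, and log2 CPM for likeness used a prior count of 2. Coordinates came from GENCODE M21.

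Replicate numbers come from the labels and nothing says that they mark animals, so p-values measure the spread between these libraries, which may be technical. In 18 of 18 same-number pairs of libraries the deviations from the group means correlated (r from 0.117 to 0.401, other pairs from -0.354 to 0.102), so the numbers were taken to pair the libraries, and the replicate block was an alternative. Named genes were all 7 members, the 3 genes most like each, and the called or uncalled genes with the highest and lowest log2 fold change of each pathway list in each comparison with Naïve (some are not reported here). The members and gene lists were chosen with earlier results of these data known.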

Additional observations from a re-analysis of the deposited data

How the results depend on the processing

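Over 840 refits of single members, 776 kept direction and side of the threshold, 35 lost a call, 21 gained one and 8 turned direction, all 8 among differences between treatments that were not called. When leaving out 1 library, log2 fold changes ran from -0.18 to 0.62 for Slfn4 in IFNγ against αCD3 (lowest without αCD3 replicate 1), from -0.66 to 0.019 for Slfn9 in αCD3 against LPS (highest without αCD3 replicate 1), and in IFNγ against LPS from -0.22 to 0.45 for Slfn3, from -0.096 to 0.67 for Slfn5 and from -0.12 to 0.31 for Slfn8 (lowest without IFNγ replicate 2 for all 3, and Slfn3 also below 0 without LPS replicate 1 or 2). The cause of these turns was not tested. In the refit with summed pairs the result of the sum stood for both members. The sum of Slfn3 and Slfn4 gave -0.43 in IFNγ against LPS, which was counted as a turn of Slfn3. Its call in αCD3 against Naïve (edgeR adjusted p = 0.0175) was counted as gained by Slfn3. Both mostly reflect Slfn4, which had far more counts.

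With the replicate block the members called moved from 1 to 4 in IFNγ against αCD3 and from 1 to 3 in αCD3 against LPS, beside Slfn2 in αCD3 against Naïve, and the block changed no other call of a member. DESeq2 called 2 members higher in IFNγ than in αCD3, with 2138 of all genes higher and 2519 lower. The number of genes that DESeq2 tested is not reported here, so this count has no share beside it. Without the libraries numbered 1, an alternative added after seeing the data, 5 members were called in IFNγ against αCD3, 2 in IFNγ against LPS and 3 lower in αCD3 than in LPS (15.1% of all tested genes in that fit). Leaving out 1 library gave 4 to 7 members in IFNγ, 2 to 5 in αCD3 and 5 to 7 in LPS against Naïve (all tested genes called either way in these fits, 6.38% to 13.4%, 25.4% to 40.2% and 38.6% to 49.8%), 1 to 2 in IFNγ against αCD3 (28.1% to 38%), 0 in all fits of IFNγ against LPS (31.9% to 41.1%), 0 to 1 in αCD3 against LPS (11.6% to 21%) and 5 to 7 for any difference (52.2% to 60.6%). No count filter and the fit on only the groups compared each cost 1 or 2 calls against Naïve (Slfn3 and Slfn4).

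Of the interferon targets, 4 differed between IFNγ and αCD3, 12 with the block, 21 without the libraries numbered 1, 2 with no count filter, 1 with only the groups compared and 1 to 8 when leaving out 1 library. Over all tested genes, 37.2% differed between IFNγ and αCD3, 49.7% with the block and 45.4% without the libraries numbered 1. Leaving out 1 library gave 28.1% to 38%. With no count filter 4153 genes differed and with only the groups compared 3882, against 4514 in the main fit. Between IFNγ and LPS these were 0 (also at an unadjusted p under 0.05 and in DESeq2), 1 with the block and 10 without the libraries numbered 1, and between αCD3 and LPS 1, 15 and 16. Of the quiescence genes, 3 (all higher), 7 (4 higher and 3 lower) and 6 (5 higher and 1 lower) were called in IFNγ against Naïve, 12, 21 and 20 in LPS against Naïve (20 with library size alone, 4 to 17 when leaving out 1 library), 12, 23 and 23 in IFNγ against LPS and 8, 18 and 19 in αCD3 against LPS (5 with no count filter or only the groups compared, 4 to 10 when leaving out 1 library). Of the activation genes, 5 were called in IFNγ against Naïve, 11 without the libraries numbered 1 and 2 to 6 when leaving out 1 library.

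Over all genes, 1508 were called in IFNγ against Naïve, 2279 with library size alone, 3020 with the block, 2837 without the libraries numbered 1 and 787 to 1651 when leaving out 1 library, the lowest without IFNγ replicate 2. In αCD3 against LPS 2351 were called, 4202 with the block, 3582 without the libraries numbered 1, 1440 with only the groups compared and 1429 to 2590 when leaving out 1 library. Library size alone moved the median of all genes to -0.16 in IFNγ, -0.13 in αCD3 and -0.22 in LPS, and the share of calls that were higher from 65.6% to 31.4%, 59.3% to 44% and 54.7% to 32.8%, while all 7 members kept their direction against Naïve. It moved the same share from 44.6% to 52.6% in IFNγ against LPS and from 49.7% to 68.8% in αCD3 against LPS. Counts of Slfn3 were low, which limits its precision.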
